A study of Homo sapiens with 6 samples.

Results

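Brakes on the cell cycle and stress-response genes were followed in human HL60 cells in which the gene of the transcription cofactor Akirin2 had been edited. The genes described are CDKN1A, CDKN1B, CDKN2C, CDKN2D, MDM2, GADD45A, GADD45B and GADD45GIP1, chosen by name from the table of all genes. All 8 were among the 17499 genes listed, and all 8 were among the 17425 that passed the minimum of a mean of 10 normalized counts. HL60 is an established line of human promyelocytic leukemia. The KO cells were a pool transfected with Cas9 and a guide RNA against akirin2 and used without isolating clones, so that unedited cells remain in it, and their genotype label reads AKR2 knock down. The WT cells were a pool transfected with the Cas9 nuclease alone. Both were grown in the same medium with serum, and 3 libraries (KO1 to KO3 and WT1 to WT3) were sequenced from each.

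Cyclin-dependent kinases (CDKs) drive the cell through its division cycle once they are bound by cyclins. The INK4 inhibitors bind CDK4 and CDK6 and keep cyclin D away from them, whereas the CIP/KIP inhibitors bind assembled cyclin-CDK complexes, CDK2 in particular. CDKN1A (p21) is also a classical target of p53, and so are MDM2, the ubiquitin ligase that degrades p53, and GADD45A, a small stress protein that activates the kinase MAP3K4. In myeloid cells, exit from the cycle through these inhibitors accompanies terminal differentiation.

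Of the 8 genes, 5 were lower in KO, 1 was higher and 2 were not called at an adjusted p under 0.05. The falls were large for CDKN1A and CDKN2D, with log2 fold changes (KO/WT) of −3.04 and −2.34, and smaller for GADD45B (−0.66), CDKN1B (−0.51) and CDKN2C (−0.24). GADD45GIP1 rose by 0.85, and MDM2 and GADD45A were the uncalled genes. Calls were frequent in this comparison, since 60.6% of all tested genes were called, 30.3% lower and 30.3% higher, so that a call by itself sets none of the 8 apart. Changes past 2 on the log2 scale were rarer, at 3.54% of tested genes in both directions together and 2.14% downward, and 2 of the 8 genes were past it. The KO and WT values did not overlap for 6 of the 8 genes, as for 65.2% of all tested genes. The median log2 fold change was −0.37 over the 8 genes and −0.0066 over all tested genes.

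**Figure D1:**
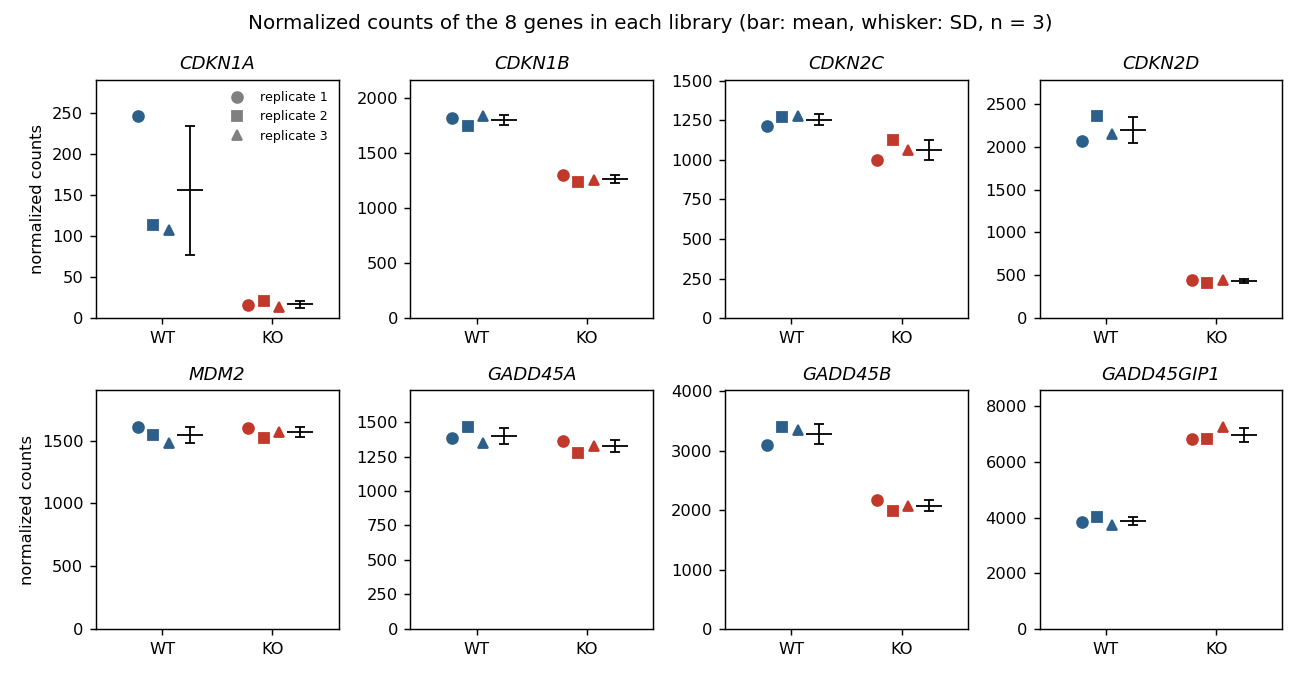
Normalized counts (linear vertical axes from 0) of the 8 genes in the 3 WT (blue) and 3 KO (red) libraries, with the marker shape giving the replicate number and the black bar and whisker the mean and SD (n = 3). The KO libraries lie below all WT libraries for CDKN1A, CDKN1B, CDKN2C, CDKN2D and GADD45B, above them for GADD45GIP1 and among them for MDM2 and GADD45A, and WT1 stands above WT2 and WT3 for CDKN1A.

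The libraries were deep, and replicates were closer in KO than in WT. A chi-square of reads between 2 libraries, divided by its degrees of freedom, was 2.10 to 4.22 in KO and 5.89 to 11.4 in WT. The largest value was between WT1 and WT3, followed by 9.51 between WT2 and WT3. WT1 stood out in 1 set of markers given below, and CDKN1A was also highest there. The listed genes held 36096459 to 47607520 reads in KO and 41419318 to 52244122 in WT. AKIRIN2 itself had 1613, 1731 and 1651 normalized counts in KO against 2378, 2450 and 2420 in WT, a log2 fold change of −0.54 (limma adjusted p = 1.3e-08), so that the edited gene was lower in each library labelled KO. All 11 promyelocyte markers of the line were tested, of which 7 were higher in KO, 2 were lower and 2 were not called. Their called share was 81.8%, against 60.6% over all tested genes. The summed level of these markers was 1061720 to 1100890 in KO and 395078 to 420945 in WT. Markers of matrix-producing cells (7 of 10 tested; DCN, LUM and THY1 were not) summed to 5652 in WT1, to 587 to 786 in the other WT libraries and to 572 to 1000.2 in KO. Of the erythroid markers 2 of 10 were tested, with none of the globin genes in the list among them, and of the T and NK cell markers 5 of 9, with sums of 5521 to 5656 in KO and 8360 to 9496 in WT. The part of these markers in the results was not tested. In bulk RNA, fewer cells that hold a transcript and less of it per cell cannot be told apart.

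The CIP/KIP genes are given first, with the bases upstream of their transcription starts, since CDKN1A showed the largest change of the 8. CDKN1A (ENSG00000124762) spans chromosome 6 from 36676460 to 36687339 on the plus strand and CDKN1B (ENSG00000111276) chromosome 12 from 12715058 to 12722371, also on the plus strand (GRCh38, GENCODE 29). The following 100 bases end at the base before the RefSeq start (GRCh38.p14, read 5′ to 3′ on the strand of the gene), with capitals for matches to the motifs searched.
CDKN1A, chr6:36678614-36678713: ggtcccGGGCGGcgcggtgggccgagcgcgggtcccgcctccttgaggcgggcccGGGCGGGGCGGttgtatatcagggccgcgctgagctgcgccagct
CDKN1B, chr12:12717268-12717367: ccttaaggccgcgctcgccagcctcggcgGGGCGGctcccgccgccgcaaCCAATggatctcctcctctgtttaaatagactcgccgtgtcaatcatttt
In the window of 250 bases before to 50 after the start, CDKN1A held 4 GC boxes (GGGCGG, either strand), the last 2 of which share a base, and CDKN1B held 1 GC box and 3 CCAAT boxes (CCAAT, either strand). GC boxes occur in 45.0% and CCAAT boxes in 34.6% of the 35116 RefSeq promoter windows of this length, so that neither is special to these genes.

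CDKN1A, the p21 inhibitor of cyclin-CDK complexes, was nearly gone from KO. It had 16.4 normalized counts in KO1, 21.1 in KO2 and 13.2 in KO3, which are 18, 21 and 11 reads. In WT it had 246 in WT1, 114 in WT2 and 107 in WT3. Every KO library was thus far below every WT library, the lowest WT value being 5.08 times the highest KO value. The means were 16.9 ± 3.96 for KO and 156 ± 78.4 for WT (SD over 3 libraries each), so that the KO level was 10.9% of the WT level. The log2 fold change had a 95% interval of −3.64 to −2.44 (limma adjusted p = 2.1e-08).

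The spread of CDKN1A within WT came from WT1, which held 2.23 times the mean of WT2 and WT3. WT1 is also the library with the excess of matrix markers given above, and 0.884% of tested genes were at least 2 times as high in WT1 as in both WT2 and WT3. Without WT1, the WT mean of CDKN1A was 110 and the log2 fold change −2.66 (limma adjusted p = 1.7e-07), and without WT1 and KO3 together it was −2.50. With an ordinary linear model on unlogged counts, which takes the spread from this gene alone, the adjusted p was 0.069. DINOL, annotated on the opposite strand, overlaps 146 bases of CDKN1A exons and has no values here. The sources do not say whether reads were counted by strand.

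CDKN1B encodes p27, the CIP/KIP inhibitor best known for holding resting cells out of the cycle. It had 1301, 1231 and 1257 normalized counts in KO1 to KO3 and 1813, 1745 and 1833 in WT1 to WT3. The groups were well separated, with replicate variation of only 2.80% (KO) and 2.58% (WT) of the mean. The KO level was 70.3% of the WT level, at a log2 fold change of −0.51 (95% interval −0.62 to −0.40, limma adjusted p = 6.3e-08). The third gene of the family, CDKN1C (p57), which is not among the 8, had 17.4, 8.03 and 19.2 in KO and 192, 192 and 219 in WT. Its log2 fold change was −3.75 (limma adjusted p = 2.9e-10), resting on 19, 8 and 16 reads in KO1 to KO3. All 3 CIP/KIP genes were thus lower in KO, where 30.3% of all tested genes were called lower. Of 6 further genes listed with the CDK inhibitors, CDKN1C among them, 1 was higher, 2 were lower and 3 were not called (median −0.16). Their called share was 50%, against 60.6% over all tested genes. In this list CDKN3, a phosphatase that acts on CDKs, was higher at 0.47 (limma adjusted p = 4.1e-07). CDKN2AIP, a binding partner of the CDKN2A product, was lower at −0.25 (limma adjusted p = 0.00071).

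A ratio taken inside each library does not depend on how the library was scaled. The log2 ratio of CDKN1A to CDKN1B was −6.22, −5.80 and −6.47 in KO1 to KO3 and −2.88, −3.93 and −4.08 in WT1 to WT3. The group means differed by −2.53, and all 3 KO ratios lay below all 3 WT ratios. An exact two-sided permutation test gave p = 0.1, the smallest that 3 against 3 libraries allow, which stayed at 0.1 when adjusted over the 4 ratios computed. The same test gave 0.1 for each of the other 3 ratios.

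**Figure D2:**
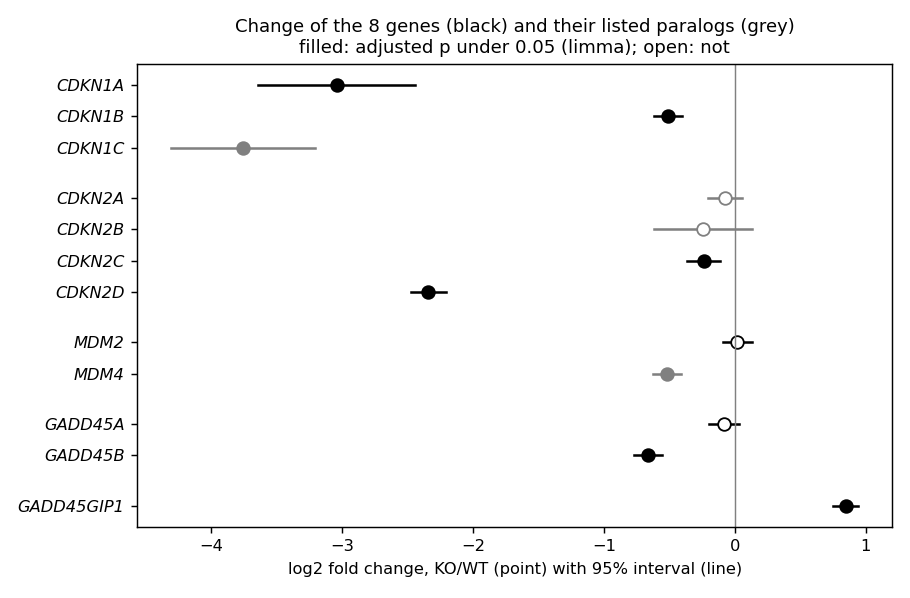
Log2 fold changes, KO/WT (horizontal axis), of the 8 genes (black) and of their paralogs in the table (grey), with 95% intervals from limma as lines, filled points for an adjusted p under 0.05 and open points otherwise. CDKN1A at −3.04, CDKN1C at −3.75 and CDKN2D at −2.34 lie far to the left, while MDM2 and GADD45A lie close to 0.

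The INK4 genes diverged from each other. CDKN2D (ENSG00000129355) lies on chromosome 19 from 10566462 to 10569059 on the minus strand, and CDKN2C (ENSG00000123080) on chromosome 1 from 50960745 to 50974633 on the plus strand. CDKN2D showed the second largest change of the 8, and the 100 bases before its RefSeq start are shown for comparison with CDKN1A, with the 1 motif match in this stretch in capitals.
CDKN2D, chr19:10568980-10569079: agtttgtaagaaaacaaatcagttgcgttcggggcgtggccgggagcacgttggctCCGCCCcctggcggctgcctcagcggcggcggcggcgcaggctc
The match is a GC box read on the opposite strand, and the whole window held 3 GC boxes and 1 CCAAT box. CDKN2C has 3 RefSeq starts, and its windows are not printed. The other motifs searched on both strands were the TATA box (TATAAA), the AP-1 element (TGANTCA), the cAMP response element (TGACGTCA), the ATF4 composite element (TGATGNAA), the E-box (CACGTG), the E2F site (TTTNGCGC), the NF-kB site and the p53 decamer. The decamer was searched as an exact match only and occurs in 6.63% of all windows. No window of the 7 genes that matched held it, CDKN1A and MDM2 included. This says only that these letters are absent there, since sites that deviate from them or lie outside the window were not searched.

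CDKN2D encodes p19, which inhibits CDK4 and CDK6. It had 443, 406 and 444 normalized counts in KO1 to KO3 and 2062, 2356 and 2148 in WT1 to WT3. No KO library came near a WT library, the lowest WT value being 4.64 times the highest KO value. The means were 431 ± 21.9 for KO and 2189 ± 151 for WT (SD over 3 libraries each), so that KO kept 19.7% of the WT level. The 95% interval of the log2 fold change was −2.48 to −2.20 (limma adjusted p = 3.3e-16), and its size was above that of 97.7% of tested genes.

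CDKN2C encodes p18, an inhibitor of the same kinases. It had 999.6, 1125 and 1064 normalized counts in KO1 to KO3 and 1214, 1269 and 1276 in WT1 to WT3. The groups did not overlap, but the gap was narrow, since the lowest WT value was 1.08 times the highest KO value. The KO level was 84.8% of the WT level (log2 fold change −0.24, 95% interval −0.36 to −0.12, limma adjusted p = 0.0016). With equal library totals it was −0.18 (adjusted p = 0.015).

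The log2 ratio of CDKN2C to CDKN2D turned over, from −0.76, −0.89 and −0.75 in WT1 to WT3 to 1.17, 1.47 and 1.26 in KO1 to KO3. The difference was 2.10. Per kilobase of exon, CDKN2D stood at 1456 ± 100.4 and CDKN2C at 378 ± 10.2 in WT, against 287 ± 14.6 and 320 ± 18.9 in KO (SD, n = 3 each). CDKN2A and CDKN2B, the other INK4 genes, were not called. CDKN2A had 1034, 1047 and 1075 normalized counts in KO and 1018, 1166 and 1150 in WT (log2 fold change −0.077, limma adjusted p = 0.29). CDKN2B was low in both, with 74.9 to 109 in KO and 89.5 to 123 in WT (log2 fold change −0.24, limma adjusted p = 0.25). CDKN2D was thus the only gene of the INK4 family past 2 on the log2 scale.

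MDM2 (ENSG00000135679) lies on chromosome 12 from 68808176 to 68850686 and encodes the ligase that marks p53 for degradation. Its exons overlap AC025423.2 on the same strand over 439 bases, and AC025423.4 and CPM on the other strand over 918, so that some reads could belong to either gene. Its counts were 1602, 1525 and 1572 in KO1 to KO3 and 1610, 1547 and 1483 in WT1 to WT3, and the groups lay within each other. The log2 fold change was 0.018, and its 95% interval of −0.091 to 0.13 leaves room for a ratio of 0.939 to 1.09 (limma adjusted p = 0.78). MDM4, the relative of MDM2 that binds p53 without degrading it, was lower in KO. It had 3232, 3183 and 3582 normalized counts in KO and 4946, 4674 and 4661 in WT (log2 fold change −0.52, limma adjusted p = 3.6e-08). The log2 ratio of CDKN1A to MDM2, the classical pair of p53 targets, was −6.52, −6.11 and −6.79 in KO and −2.71, −3.76 and −3.78 in WT, a difference of −3.06. The KO and WT ratios did not overlap.

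The GADD45 genes encode small acidic proteins that are induced by DNA damage, growth arrest and inflammatory signals, and that bind MAP3K4 and PCNA. GADD45A (ENSG00000116717, chromosome 1 from 67685061 to 67688338) was not called. It had 1366, 1279 and 1327 normalized counts in KO1 to KO3 and 1387, 1466 and 1349 in WT1 to WT3, so that KO1 stood above WT3. The log2 fold change was −0.081 with a 95% interval of −0.20 to 0.034 (limma adjusted p = 0.21).

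GADD45B (ENSG00000099860, chromosome 19 from 2476122 to 2478259), known in other cells as a target of NF-kB, was lower in KO. Its counts were 2166, 1981 and 2071 in KO1 to KO3 and 3095, 3405 and 3345 in WT1 to WT3. The groups were clearly apart, the lowest WT value being 1.43 times the highest KO value. The means were 2072 ± 92.5 for KO and 3282 ± 164 for WT (SD over 3 libraries each), and the log2 fold change had a 95% interval of −0.77 to −0.55 (limma adjusted p = 1.4e-09). The log2 ratio of GADD45A to GADD45B was −0.66, −0.63 and −0.64 in KO and −1.16, −1.22 and −1.31 in WT, a difference of 0.58. The KO and WT ratios did not overlap, and of the pair GADD45B was the one called.

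GADD45GIP1 shares part of its name with this family but is not a member of it. It is a protein of the large subunit of the mitochondrial ribosome that was found to bind GADD45 proteins. The bases before the RefSeq starts of GADD45B and GADD45GIP1 are set side by side because the genes moved in opposite directions.
GADD45B, chr19:2476027-2476126: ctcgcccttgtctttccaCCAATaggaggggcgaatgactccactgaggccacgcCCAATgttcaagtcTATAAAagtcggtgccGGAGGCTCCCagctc
GADD45GIP1, chr19:12957224-12957323: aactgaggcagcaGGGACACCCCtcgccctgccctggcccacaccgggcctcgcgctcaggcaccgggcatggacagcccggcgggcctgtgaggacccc
The stretch of GADD45B held 2 CCAAT boxes, a TATA box (TATAAA) beginning at position −31 from the start, and a match to the NF-kB site at −15. That of GADD45GIP1 held a match to the NF-kB site at −87 and no other match, while its whole window also held a GC box and a TATA box. TATA boxes occur in 11.5% and matches to the NF-kB site in 9.08% of all windows of this length. A match describes letters and not a bound factor. RefSeq windows matched 7 of the 8 genes, all but GADD45A.

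GADD45GIP1 (ENSG00000179271, chromosome 19 from 12953119 to 12957236, minus strand) was the only one of the 8 that rose. It had 6831, 6837 and 7258 normalized counts in KO1 to KO3 and 3855, 4029 and 3748 in WT1 to WT3. Every KO library was above every WT library, the lowest KO value being 1.70 times the highest WT value. The means were 6975 ± 245 for KO and 3877 ± 142 for WT (SD over 3 libraries each), a ratio of 1.80, and the 95% interval of the log2 fold change was 0.75 to 0.94 (limma adjusted p = 5.3e-12).

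The ribosome that GADD45GIP1 belongs to was followed in a list of its other proteins. Of 51 genes of the mitochondrial large subunit, 34 were higher in KO, 6 were lower and 11 were not called, a called share of 78.4% against 60.6% over all tested genes, of which 30.3% were higher. The median log2 fold change was 0.32 against −0.0066 over all tested genes. MRPL27 had the largest rise, at 0.82, just under the 0.85 of GADD45GIP1, and MRPL45 the largest fall, at −0.54. The 2 with the highest mean counts were MRPL3 at 0.36, which was called, and MRPL37 at 0.066 (limma adjusted p = 0.22), which was not. With equal library totals MRPL37 was called (0.12, limma adjusted p = 0.0069).

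**Figure D3:**
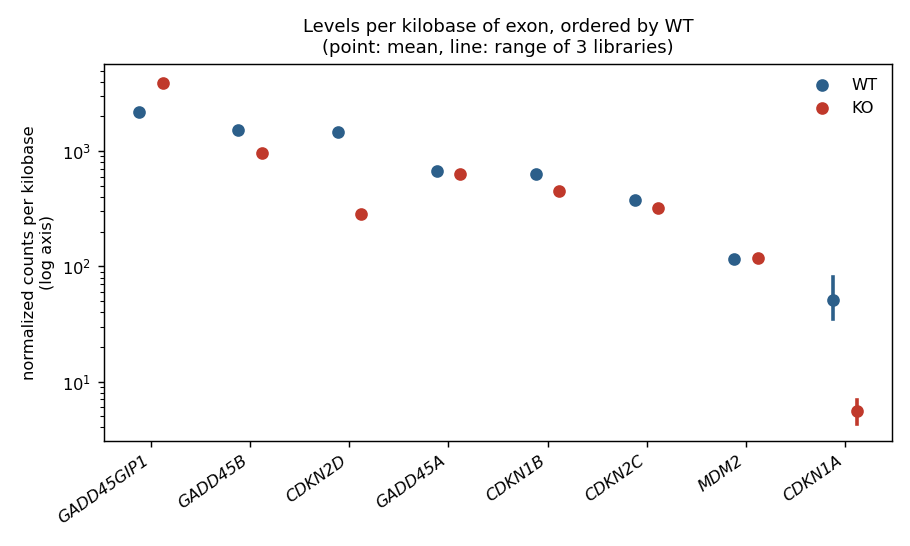
Mean normalized counts per kilobase of joined exons (log axis) of the 8 genes in WT (blue) and KO (red), ordered by the WT level, with lines for the range over 3 libraries. CDKN2D falls from the third place in WT to the sixth in KO, and CDKN1A is the lowest of the 8 in both.

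Between genes, levels were compared per kilobase of joined exons. In WT the order was GADD45GIP1 (2176 ± 79.5), GADD45B (1535 ± 76.9), CDKN2D (1456 ± 100.4), GADD45A (677 ± 28.9), CDKN1B (639 ± 16.5), CDKN2C (378 ± 10.2), MDM2 (116 ± 4.77) and CDKN1A (51.0 ± 25.7), each with its SD (n = 3). The ranges of GADD45B and CDKN2D overlapped, as did those of GADD45A and CDKN1B, so that these neighbours were not told apart. In KO no neighbours overlapped, and the order was GADD45GIP1 (3914 ± 138), GADD45B (969 ± 43.3), GADD45A (640 ± 21.2), CDKN1B (449 ± 12.6), CDKN2C (320 ± 18.9), CDKN2D (287 ± 14.6), MDM2 (118 ± 2.93) and CDKN1A (5.55 ± 1.30). CDKN2D thus lost 3 places. With the length of the longest coding transcript in place of all exons, GADD45B came before GADD45GIP1 in WT, and no other place changed. The joined exons of MDM2 measure 13.3 kilobases, against at most 3.32 for the others.

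The partners of the CDK inhibitors were called about as often as genes in general. Of 16 genes of CDKs, cyclins and their activating kinase, 6 were higher in KO, 4 were lower and 6 were not called, a called share of 62.5% against 60.6% over all tested genes (median log2 fold change 0.0027). CCND3, a D-type cyclin of blood cells, fell by 1.87 on the log2 scale, from 6303 ± 552 in WT to 1720 ± 64.5 in KO. CCND2, the listed cyclin with the highest mean count, fell by 0.61. CCNA1, a cyclin of germ cells and myeloid leukemia, rose from 65.5 ± 18.7 to 317 ± 37.1, a log2 fold change of 2.30. CDK4, the kinase that the INK4 proteins bind, had 4347 to 4882 normalized counts in KO and 4508 to 4783 in WT and was not called (limma adjusted p = 0.86). Outside the rule for named genes, and chosen after their values were seen, CDK6 was higher at 0.83 and CCND1 lower at −0.76, so that both kinases and all 3 D-type cyclins that the INK4 proteins regulate are accounted for.

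Downstream of these kinases, the pocket proteins (RB1 and its relatives) restrain E2F factors until they are phosphorylated. Of 13 genes of both groups, 5 were higher, 4 were lower and 4 were not called, a called share of 69.2% against the same 60.6% (median −0.0080). The partner subunits of E2F, TFDP2 and TFDP1, rose by 1.24 and 0.57 on the log2 scale. E2F2 fell by 1.48, from 2525 ± 169 in WT to 905 ± 65.0 in KO.

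Of 15 genes listed for ubiquitin ligases around the p21 and p27 proteins, 8 were higher, 2 were lower and 5 were not called (median 0.12). Their called share of 66.7% was near the 60.6% over all tested genes. DDB1 and CUL4A, of the ligase that acts on p21 in S phase, were among them, at 0.73 and 0.57, as was CKS2 of the small cyclin-kinase adaptors, at 0.51. FZR1, an activator of the anaphase-promoting complex, had the largest fall, at −0.38. The list does not separate genes that act directly on p21 and p27 from those that do not. The count of lower genes was 1 under 7 of the alternatives, among them TMM scaling. SKP2, the subunit that recognises p27, was higher at 0.71, a gene chosen after its value was seen. Also chosen so, CKS1B at 0.11 (limma adjusted p = 0.42) and DTL at 0.050 (limma adjusted p = 0.48) were among the uncalled genes.

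Around MDM2, 14 genes of p53 relatives, MDM2 partners and damage kinases were tested. Of these, 5 were higher, 6 were lower and 3 were not called (median −0.051). Their called share was 78.6%, against 60.6% over all tested genes. The ribosomal proteins RPL5 and RPL11, which bind and block MDM2, had the highest mean counts, and they fell by 0.76 and 0.33 on the log2 scale. ATR, a kinase of the DNA damage response, had the largest rise, at 0.53.

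Other targets of p53 moved in both directions. Of 27 tested, 10 were higher, 9 were lower and 8 were not called (median 0.0051), a called share of 70.4% against 60.6% over all tested genes. BBC3, a pro-apoptotic BH3-only protein, fell from 1132 ± 137 in WT to 73.1 ± 3.73 in KO, a log2 fold change of −3.93. TNFRSF10B, a death receptor, fell by 1.62, and TRIM22 rose from 63.8 ± 6.54 to 250.2 ± 28.5, a log2 fold change of 1.95. BAX, with the highest mean count of them, had 3450 to 3654 normalized counts in KO and 3618 to 4058 in WT and was not called (limma adjusted p = 0.12). Without WT1 it was called lower, at −0.12 (adjusted p = 0.049). Chosen after their values were seen, BTG2, an antiproliferative protein, and SESN2, an inhibitor of mTOR signaling, were with BBC3 the 3 genes of this list past 2 on the log2 scale, at −3.49 and −2.89. CDKN1A itself, at −3.04, is not counted in this list.

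Effectors of GADD45 proteins gave 4 higher, 4 lower and 3 uncalled genes of 11 (median 0.065). Their called share was 72.7%, against 60.6% over all tested genes. MAP2K6, an activator of p38, had 62.1, 67.3 and 73.2 normalized counts in KO against 9.39, 7.87 and 29.3 in WT, a log2 fold change of 2.28. MAP2K3, another activator of p38, fell by 0.60, and MAP2K7, which acts on JNK, fell by 0.38. PCNA, the replication clamp that GADD45 and p21 proteins bind, had a log2 fold change of −0.14 (limma adjusted p = 0.010), a call that was lost with equal library totals, without the variance trend and on leaving out KO1, KO3 or WT1 (adjusted p of 0.052 to 0.22 over these and the joint removal of WT1 and KO3). GADD45G was not among the tested genes.

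Transcription factors known to act on promoters of the 8 genes were followed in a list drawn up with earlier results of these data known. Of 29 tested, 23 were lower in KO, 5 were higher and 1 was not called, a called share of 96.6%, where 60.6% of all tested genes were called and 30.3% were lower. The median log2 fold change was −0.50 against −0.0066 over all tested genes. ATF3, a stress-induced factor, fell from 477 ± 60.7 in WT to 27.4 ± 4.70 in KO, a log2 fold change of −4.08. ATF4, a factor of the amino acid response known to induce stress genes, fell by 1.14, from 72597 ± 4214 to 32831 ± 198. MYC, which represses CDKN1A and CDKN1B in other cells, was among the 5 that were higher, at 75991 ± 1043 in KO against 45268 ± 1027 in WT, a log2 fold change of 0.75. What these levels do to the 8 genes was not tested.

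**Figure D4:**
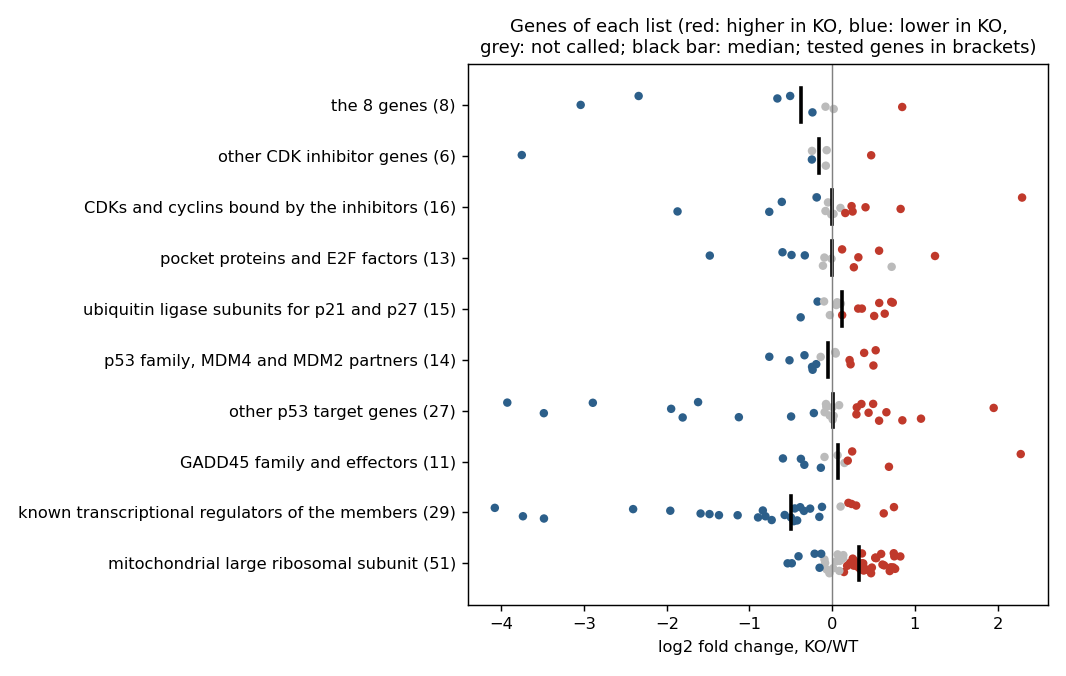
Log2 fold changes, KO/WT (horizontal axis), of the 8 genes and of the tested genes in each list, 1 point a gene, red for higher in KO, blue for lower, grey for not called, with a black bar at the median of the list. The transcriptional regulators (median −0.50) lie mostly to the left, the mitochondrial ribosomal genes (median 0.32) mostly to the right, and the other lists spread around 0.

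For the 3 genes with the largest changes, the genes with the most similar profile over the 6 libraries were found by the root mean square difference of centred log2 values, among 11272 candidate genes. The nearest to CDKN1A were THBS1, which encodes thrombospondin 1 (0.32), the creatine kinase CKB (0.37) and the receptor phosphatase PTPRF (0.38). THBS1 and PTPRF, as CDKN1A, were highest in WT1 among the WT libraries, at 973 and 809 normalized counts. CDKN2D had much closer neighbours, among them SH3TC1 (0.057) and DDIT4, an inhibitor of mTOR signaling (0.058). DDIT4 had 817 to 883 normalized counts in KO and 4426 to 4783 in WT. The nearest to GADD45GIP1 were the transcript AC106795.1 (0.019), ALDH18A1, an enzyme of proline synthesis (0.027), and PINK1-AS (0.029). With 6 libraries and most genes called, close profiles are common, and these distances are a description only.

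**Figure D5:**
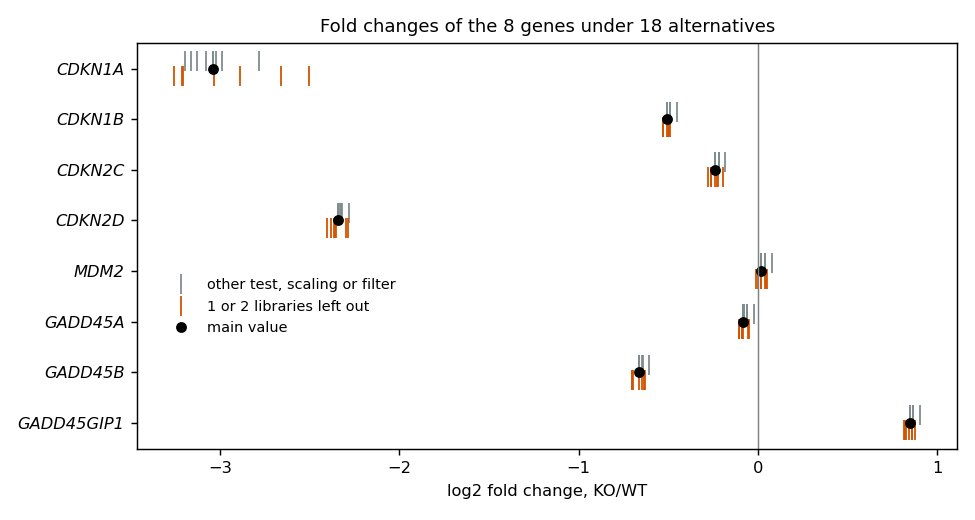
Log2 fold changes, KO/WT (horizontal axis), of the 8 genes as reported (black points), under other tests, scalings and filters (grey ticks) and with 1 or 2 libraries left out (orange ticks). The ticks of CDKN1A spread from −3.25 to −2.50 and those of CDKN2D from −2.40 to −2.28, and only those of MDM2 lie on both sides of 0.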

How the data were processed

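The authors deposited, for 17499 genes, normalized counts of 3 KO and 3 WT libraries, a signal obtained by dividing reads by library size factors. Whole reads were recovered for 100% of values (tolerance 0.01). The submitters' notes name Trimmomatic 0.36, featureCounts, Subread 1.5.2, DESeq2 and GRCh38, in no order. Aligner, annotation and strand setting: not given in the sources used here. Columns with the authors' own fold changes and p-values were not used.

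Groups were compared on log2(normalized count + 1) with limma 3.58.1 (variance trend, two-sided, Benjamini-Hochberg over 17425 genes with a mean of at least 10, the other 74 left out) in R 4.3.3. Fold changes on this scale understate those of low genes. The procedure was tested on simulated data. The study's methods describe the replicates as biological but do not say whether they were separate cultures of the 1 pool per group, and p-values measure only the spread between these libraries. Exon lengths came from GENCODE 29 (17420 identifiers matched) and promoters from RefSeq (GRCh38.p14). The 8 genes and all lists were chosen with earlier results of these data known. Genes named beside the 8 and AKIRIN2 were chosen by a rule. Of each list it took the called genes with the largest rise and fall and the 2 with the highest mean. It also took the paralogs and the 3 nearest profiles (mean of 100 or more, the 8 left out) of the 3 genes that changed most. Outside the rule, CDK6, CCND1, SKP2, CKS1B, DTL, BTG2 and SESN2 were added after their values were seen. Some genes are not reported here. Alternatives were other pseudocounts, minimums, scalings, tools, a replicate block and left-out libraries, and the exon length used for the order of levels was added after seeing the data. Plots used matplotlib 3.10.9.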

Additional observations from a re-analysis of the deposited data

How the results depend on the processing

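The 8 genes were refitted under 18 alternatives each: pseudocounts of 0.5 and 5, no minimum and a minimum mean of 50 normalized counts, TMM scaling, equal library totals, edgeR 4.0.16 and DESeq2 1.42.0 on the recovered reads, no variance trend, an ordinary linear model on unlogged counts, a replicate block, each library left out, and WT1 and KO3 left out together. Of these 144 refits, 142 kept the direction and the side of the threshold. CDKN1A was not called with the ordinary linear model (−3.13, adjusted p = 0.069), and MDM2, uncalled throughout, was −0.011 without WT3. Leaving out libraries gave −3.25 to −2.50 for CDKN1A and −0.011 to 0.048 for MDM2. CDK4, uncalled throughout, was 0.0079 with TMM scaling, 0.0089 with edgeR, 0.047 with equal library totals, 0.034 without KO2 and 0.0076 without WT3, and −0.050 to 0.034 over all removals. The numbers of called genes ranged from 8760 with the ordinary linear model to 10611 with edgeR. The replicate numbers did not pair the libraries, with correlations of −0.073, 0.052 and −0.075 between the deviations of same-numbered libraries. With the number as a block, 10394 genes were called, and CDKN1A stayed at −3.04. The low reads of CDKN1A in KO (50 in all) limit its precision.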
